A study of Homo sapiens with 6 samples.

Results

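The oligoadenylate synthetase (OAS) family was examined in BT-549 cells, an established human triple-negative breast cancer line, before and after silencing of IRF1, a factor that switches on interferon (IFN) target genes. The family comprises 4 genes, OAS1, OAS2, OAS3 and OASL, which were taken by symbol from a table of 37887 gene symbols. RNA-seq counts were available for 3 control samples and 3 samples silenced with an IRF1 short hairpin RNA (IRF1shRNA, drawn as shIRF1 in the plots). The control samples received 0.1% DMSO and their titles name a control shRNA, whereas the series description names only cells with a tet-inducible IRF1 shRNA vector. The IRF1shRNA samples received 500 ng/ml doxycycline, so effects of the drug and of the shRNA cannot be told apart. All samples came from the same line, cultured in triplicate, and the description names a single IRF1 shRNA vector.

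OAS proteins are sensors of double-stranded RNA (dsRNA), a product of many viruses. On binding dsRNA, OAS1, OAS2 and OAS3 join ATP into short chains with unusual 2′-5′ linkages, known as 2-5A. The 2-5A chains act as a second messenger of the antiviral response. OASL resembles the other members but does not make 2-5A, and it carries ubiquitin-like domains at its end. It is known to enhance signaling by the RNA sensor RIG-I and to restrain the DNA sensor cGAS. The genes are induced by IFN through promoter elements that bind IRF proteins and their partners.

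Libraries held between 55143808 and 160436234 counts, with IRF1shRNA replicate 2 at the lowest. Values are given as CPM, the count scaled to library size, after TMM scaling, and 3 counts in a library corresponded to between 0.0182 and 0.0540 CPM. The silenced gene was examined first, and IRF1 stood at 48.3 ± 3.14 CPM without and at 14.4 ± 0.601 CPM with doxycycline (SD, n = 3 each), a log2 fold change of −1.74 ± 0.06 (SE). Markers of the line were expressed in both groups, with the mesenchymal genes VIM, ZEB1, FN1 and CDH2 summing to between 1936 and 2047 CPM in control and to between 1514 and 1616 CPM in IRF1shRNA samples. Of these 4 genes, 3 were called lower and 0 were lower by more than 2-fold, where 26.4% of all genes tested were called lower. The log2 fold changes were −0.56 for VIM, −0.34 for FN1 and −0.14 for ZEB1. The estrogen receptor gene ESR1 reached at most 0.144 CPM and the progesterone receptor gene PGR at most 0.325 CPM, whereas ERBB2 was at 47.7 to 54.8 CPM in control and at 35.0 to 38.1 CPM in IRF1shRNA samples and was called lower (−0.48 ± 0.06, log2 fold change ± SE). The 6 leukocyte markers summed to between 1.57 and 1.84 CPM in control and to between 2.53 and 3.30 CPM in IRF1shRNA samples. Of the 2 leukocyte markers tested, CD14 was called higher (log2 fold change 1.003 ± 0.14, SE), as were 24.1% of all genes tested. PTPRC was not called (−0.24 ± 0.30). CD3E was below the count filter, with no more than 1 count in any library. The part of these markers in the results below was not tested.

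OAS1, OAS3 and OAS2 lie next to each other in this order and orientation on chromosome 12, and OASL lies apart from them on the other strand. In GENCODE release 29 (GRCh38), OAS1 (ENSG00000089127.12) spans chr12:112906777-112933222, OAS3 (ENSG00000111331.12) spans chr12:112938352-112973249 and OAS2 (ENSG00000111335.12) spans chr12:112978395-113011723, all on the plus strand. The gap between OAS1 and OAS3 is 5129 bases and that between OAS3 and OAS2 is 5145 bases. OASL (ENSG00000135114.12) spans chr12:121019111-121039242 on the minus strand, 8.007 Mb beyond OAS2. An antisense gene, AC004551.1, spans chr12:112907628-113017751 on the minus strand and overlaps OAS1, OAS2 and OAS3. Whether strand was used in counting is not given in the sources used here, so reads of these genes and of their antisense partner may not have been told apart. The members are also paralogs of each other, and reads from their alike stretches are uncertain for this reason.

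Promoter sequence from RefSeq (GRCh38.p14), reaching from 250 bases before the gene start to 50 after it, was matched for 2 of the 4 members, OAS1 and OAS3. Positions in this paragraph count from the RefSeq starts, chr12:112906962 for OAS1 and chr12:112938474 for OAS3. These starts lie 185 and 122 bases downstream of the GENCODE starts given above. The promoter sequence is shown because IRF1 is known to act on such promoters through repeats of GAAA. Both strands were searched for the core of the IFN-stimulated response element (GAAA, any 2 bases, then GAAA) and for the shorter IRF core (AANNGAAA), which can lie inside it. Among all 35116 promoters of the same length, 3.57% held the first and 22.8% the second. Capitals mark bases that match either motif, and all sequences run 5′ to 3′ on the plus strand.
OAS3 distal, chr12:112938224-112938351: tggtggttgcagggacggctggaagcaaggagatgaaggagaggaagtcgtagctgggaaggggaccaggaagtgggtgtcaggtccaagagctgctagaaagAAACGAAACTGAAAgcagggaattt
OAS3 proximal, chr12:112938449-112938478: gagagccgggcggGAAAACGAAAccagaaa
OAS1 proximal, chr12:112906932-112906961: cctcccttctgaggAAACGAAAccaacagc
OAS1 middle, chr12:112906900-112906929: ctgatttgcaAAAGGAAAgtgcaaagacag
OAS3 held 2 matches to the longer core, beginning 143 and 12 bases before its start, and 3 matches to the IRF core, a number reached by 1.25% of all promoters. OAS1 held no match to the longer core in this window. It held 2 matches to the IRF core, 52 and 16 bases before its start, where 5.66% of all promoters held 2 or more. Both genes carried the letters AAACGAAA close to the start, beginning 16 bases before it in OAS1 and 10 bases before it in OAS3. These matches describe the letters only and do not show binding in these cells, and their part in the changes below was not tested.

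All 4 members passed the filter on low counts and were downregulated in IRF1shRNA samples, as were 26.4% of the 18851 genes tested. The decrease was largest for OAS1 and OAS2, smaller for OAS3 and smallest for OASL. The level of OAS1, which holds a single synthetase unit, was 46.1, 58.5 and 67.1 CPM for controls 1 to 3, against 0.833, 1.19 and 1.17 CPM for IRF1shRNA replicates 1 to 3. Its lowest control was therefore far above its highest IRF1shRNA sample, and the latter values rest on 105, 66 and 193 counts. The mean fell 53.8-fold to 1.86% of control, with a log2 fold change of −5.77 (95% interval −6.07 to −5.46) and an adjusted p of 5.60e-15 in the edgeR quasi-likelihood test.

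OAS2, which holds a pair of synthetase units, was at 135, 170 and 198 CPM in control and at 2.63, 3.64 and 3.63 CPM in IRF1shRNA samples. The groups were again separate, with a 50.9-fold difference between the means. The log2 fold change was −5.68 (95% interval −5.97 to −5.40), with an adjusted p of 3.62e-15 by edgeR.

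OAS3, the member with the most synthetase units and known as the main source of 2-5A in many infected cells, was at 273, 314 and 360 CPM in control. In IRF1shRNA samples it was at 16.9, 20.0 and 21.9 CPM. The groups did not overlap, and 6.20% of the control mean remained. The log2 fold change was −4.01 (95% interval −4.22 to −3.80), with an adjusted p of 4.81e-15 by edgeR.

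OASL, the member without synthetase activity, was at 24.8, 31.2 and 39.1 CPM in control and at 3.86, 4.65 and 4.56 CPM in IRF1shRNA samples. All control samples were above all IRF1shRNA samples, and 13.7% of the control mean remained. The log2 fold change was −2.87 (95% interval −3.15 to −2.60), with an adjusted p of 1.02e-11 by edgeR.

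Calls rest on an adjusted p under 0.05, and 4.43% of the genes tested were called lower with a fold change over 2 as well, criteria that 4 of 4 members met. The groups were separate in the same direction for 29.5% of genes tested and for 4 of 4 members. A fold change as low as that of OASL or lower was seen for 0.366% of genes tested. Against a null of a 2-fold change (glmTreat), which 2.0% of genes passed in this direction, the largest adjusted p among the members was 1.53e-09, for OASL. When the 13066 genes that averaged 1 CPM or more were ranked from the largest decrease, OAS1 stood at rank 2, OAS2 at rank 3, OAS3 at rank 14 and OASL at rank 41. In bulk RNA, fewer expressing cells and less transcript per cell cannot be told apart.

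**Figure D1:**
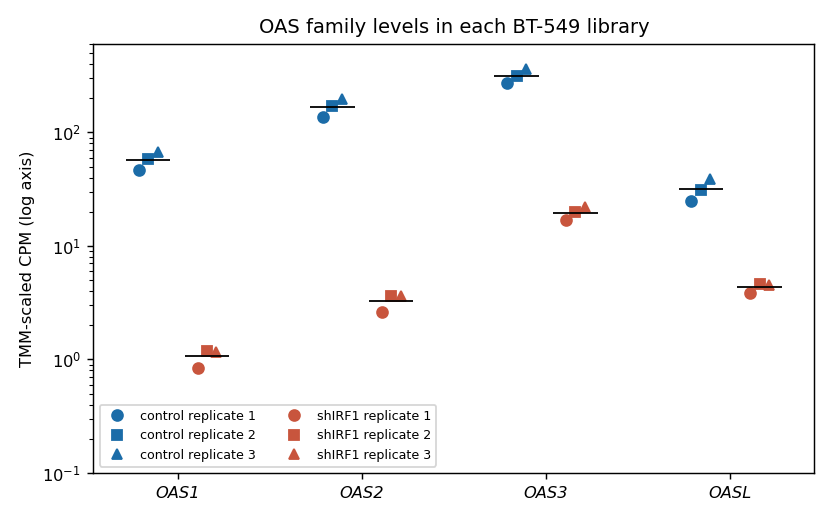
TMM-scaled CPM of the 4 OAS family genes in each library on a log axis, with control samples in blue, IRF1shRNA samples (shIRF1) in red, a marker shape for each replicate number and a black line at each group mean. The groups are separate for every gene, with OAS1 at 46.1 to 67.1 CPM in control and at 0.833 to 1.19 CPM in IRF1shRNA samples.

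The counts of the family as a whole were then considered. The 4 genes together made up 0.0476% to 0.0648% of all counts in control libraries and 0.00247% to 0.00320% in IRF1shRNA libraries. Summed over the family, control samples held 573 ± 92.4 CPM and IRF1shRNA samples 28.3 ± 3.67 CPM (SD, n = 3 each).

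To compare levels between genes, CPM was divided by the length of all annotated exons of a gene (CPM per kb, GENCODE release 29). In control samples OAS3 was the most abundant, at 38.3 ± 5.27 CPM per kb, followed by OAS2 at 26.8 ± 5.01, OAS1 at 11.6 ± 2.13 and OASL at 9.02 ± 2.03 CPM per kb (SD, n = 3 each). The control ranges of OAS3 (33.1 to 43.6) and OAS2 (21.6 to 31.6) did not overlap, whereas those of OAS1 (9.33 to 13.6) and OASL (7.06 to 11.1) did. In IRF1shRNA samples the order was OAS3 at 2.37 ± 0.306, OASL at 1.24 ± 0.123, OAS2 at 0.527 ± 0.0930 and OAS1 at 0.215 ± 0.0406 CPM per kb, with no overlap between neighbours in this order. OASL thus moved from the lowest to the second-highest level in the family. With the longest coding transcript as the length, a choice made after seeing the data, the order was the same in both groups, but the overlaps in control samples were not. OAS1 (19.1 to 27.8 CPM per kb) no longer overlapped OASL, whose highest value was 11.978 CPM per kb, whereas OAS3 (40.7 to 53.6) and OAS2 (28.6 to 41.8) did overlap.

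The make-up of the family was expressed as the share of each member in the summed CPM per kb of the 4 genes. The share of OAS3 went from 44.9% ± 1.52 in control to 54.5% ± 1.28 in IRF1shRNA samples, and that of OASL went from 10.5% ± 0.610 to 28.5% ± 1.14. The share of OAS2 went from 31.2% ± 0.697 to 12.04% ± 0.741, and that of OAS1 from 13.5% ± 0.332 to 4.92% ± 0.374. The shares depend on the length used. With the longest coding transcript, OAS3 went from 40.7% to 54.1% and OASL from 8.33% to 24.8%. On that length OAS2 went from 30.5% to 12.9% and OAS1 from 20.4% to 8.14%. No share overlapped between the groups, but the shares within a sample depend on each other, so these are not separate results. These shares have no direct bearing on protein, and OAS1 isoforms, which differ at their ends, were not counted apart.

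**Figure D2:**
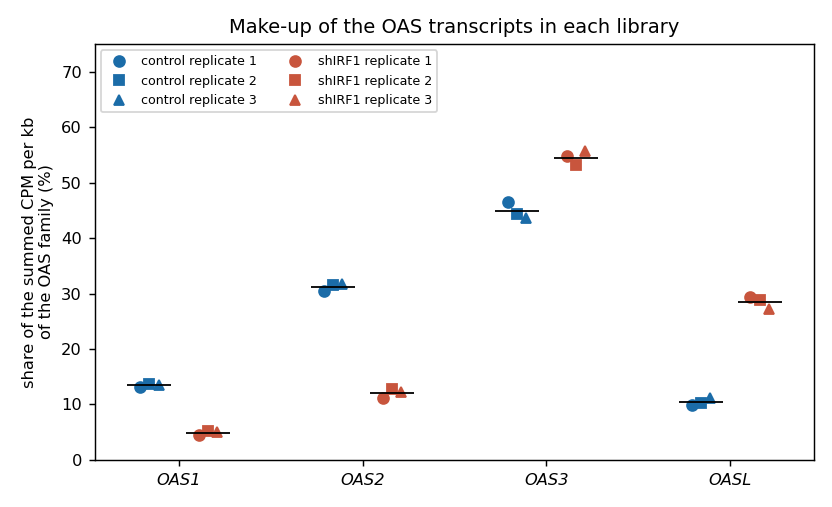
Share of each OAS family gene in the summed CPM per kb of the family, in percent, for each library, with control samples in blue, IRF1shRNA samples (shIRF1) in red, marker shapes for replicate numbers and black lines at group means. OAS1 and OAS2 hold smaller shares in IRF1shRNA samples, whereas OAS3 and OASL hold larger ones, with OASL at 27.2% to 29.4% against 9.93% to 11.1% in control.

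Whether the members fell by different amounts was assessed from the ratio of their counts within each sample, which needs no scaling factor. For OAS1 over OAS3 the log2 ratio was −2.57, −2.43 and −2.42 among controls, against −4.34, −4.07 and −4.22 with IRF1 silenced. OAS1 thus fell by 1.74 ± 0.09 (SE) more than OAS3 on the log2 scale. OAS2 fell by 1.66 ± 0.08 more than OAS3, and OAS3 fell by 1.17 ± 0.09 more than OASL. The difference between OAS1 and OAS2 was small, at −0.08 ± 0.01 (95% interval −0.12 to −0.04, from the pooled spread of the ratios). The ratios in IRF1shRNA samples rest on 105, 66 and 193 counts of OAS1, where counting error exceeds the spread between these ratios. This interval is therefore too narrow, and which of OAS1 and OAS2 fell more is not settled. In libraries thinned to the smallest total the order was reversed, with log2 fold changes of −5.65 for OAS1 and −5.68 for OAS2. The proportion of these genes moved little, 0.341 counts of OAS1 per count of OAS2 in control and 0.322 in IRF1shRNA samples. The ratios of the groups did not overlap for any of the 6 pairs, which are formed from the same members and so are not independent. Among single genes tested, the groups were separate in the lower direction for 29.5%. The share for other gene pairs was not computed. In the exact two-sided permutation test each pair had p = 0.1 and an adjusted p of 0.1 over the 6 pairs, the smallest that 3 against 3 samples can give, so this test cannot reach 0.05.

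The members also varied together among samples of one group. In the control samples, replicate 1 was the lowest and replicate 3 the highest for every member, with deviations from the group mean of log2 CPM from −0.33 to −0.20 and from 0.20 to 0.33. Among the IRF1shRNA samples, replicate 1 was again the lowest for every member, from −0.34 to −0.17, and replicates 2 and 3 lay between 0.04 and 0.18. IRF1 itself was likewise lowest in replicate 1 of both groups and highest in control replicate 3, by less than any member in these samples, with deviations of −0.09, −0.0031 and 0.10 in control and −0.07, 0.05 and 0.02 in IRF1shRNA samples. Of all genes tested, 9.71% were lowest in replicate 1 of both groups. The share of all genes with the order seen in control samples was not computed. Controls 1 and 3 also differed the most of all replicate pairs over the whole library (chi-square per degree of freedom 13.9, counts halved). The labels give no shared day or batch for samples of one number.

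**Figure D3:**
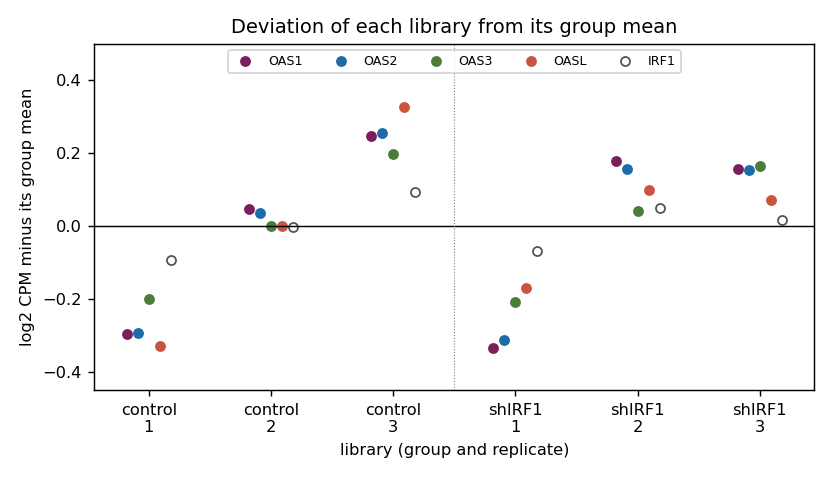
Deviation of log2 CPM from its group mean for OAS1, OAS2, OAS3, OASL (filled circles) and IRF1 (open circles) in the 6 libraries, control to the left of the dotted line and IRF1shRNA (shIRF1) to the right. All 4 members are below the group mean in replicate 1 of both groups, by 0.17 to 0.34.

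Genes that clear 2-5A or act beside it were examined next, from a list of 5 genes. Among them, AKAP7, whose longer forms carry a domain that can cleave 2-5A, was at 2.53, 2.26 and 2.94 CPM in control and at 1.33, 1.21 and 1.12 CPM in IRF1shRNA samples. AKAP7 fell to 47.3% of control, with a log2 fold change of −1.08 ± 0.14 (SE) and an adjusted p of 4.52e-06 by edgeR. The other 2-5A phosphodiesterase, the mitochondrial enzyme PDE12, was at 80.0 to 83.2 CPM in control and at 79.9 to 89.5 CPM in IRF1shRNA samples and did not pass the test (0.04, 95% interval −0.06 to 0.14), with −0.0064 without IRF1shRNA replicate 1. ABCE1, a ribosome recycling factor, rose by 0.21 ± 0.05 on the log2 scale, from 169 ± 8.45 to 195 ± 6.03 CPM. ENPP1, an ectoenzyme able to cleave 2-5A, rose by 0.27 ± 0.06, from 32.2 ± 1.68 to 38.9 ± 1.48 CPM. GSPT1, a translation release factor, was at 266 ± 4.38 and 270 ± 6.24 CPM and did not pass the test. In all, 1 of the 5 genes was lower and 2 were higher, with a median log2 fold change of 0.04, beside 26.4% lower and 24.1% higher and a median of −0.0024 over all genes tested. AKAP7 did not pass the test against a 2-fold change.

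Enzymes that share the dsRNA ligand, and the proteins bound by OASL, were lower in all 4 cases, with a median log2 fold change of −1.09. Over all genes tested, 26.4% were lower. Of the 4 genes, 2 were lower by more than 2-fold, beside 4.43% of all genes tested. EIF2AK2, which encodes the dsRNA-activated kinase PKR, was at 259, 274 and 269 CPM in control and at 99.95, 99.85 and 98.99 CPM in IRF1shRNA samples, a log2 fold change of −1.42 ± 0.04. ADAR, which edits dsRNA and so keeps cellular dsRNA from being sensed, was at −0.56 ± 0.05. DDX58, which encodes RIG-I, was at −2.42 ± 0.12, and CGAS, which encodes cGAS, was at −0.76 ± 0.06. The largest adjusted p among the 4 was 3.46e-08, for ADAR, by edgeR. Each OAS member had a lower log2 fold change than any of these genes.

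Genes whose proteins share the nucleotidyltransferase fold of OAS did not move as a group. Of 4 such genes, 1 was lower, 2 were higher and 1 did not pass the test, with a median of 0.07. The shares over all genes tested were 26.4% lower and 24.1% higher. The lower gene was CGAS, itself an IFN-stimulated gene. ILF2 rose by 0.16 ± 0.04 and STRBP by 0.13 ± 0.04, whereas ZFR was at −0.0007 ± 0.04, all 3 of them RNA-binding proteins without synthetase activity. The call of STRBP was lost by edgeR without control replicate 2 (adjusted p 0.0614), without control replicate 3 (0.0625) and without IRF1shRNA replicate 2 (0.0575), in a range from 0.00250 to 0.0625 over the alternatives other than glmTreat.

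Of the factors known to act on IFN-stimulated promoters, 3 were examined, among them IRF1, whose decrease was the aim of the shRNA. All 3 were lower, as were 26.4% of all genes tested. Besides IRF1, STAT2 was at −1.01 ± 0.06 and IRF9 at −1.43 ± 0.12 (log2 fold change ± SE), with adjusted p-values of at most 2.60e-08 by edgeR. Every OAS member fell by more than any of these 3 factors, which had a median of −1.43. STAT2 lay close to 2-fold and did not pass glmTreat.

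**Figure D4:**
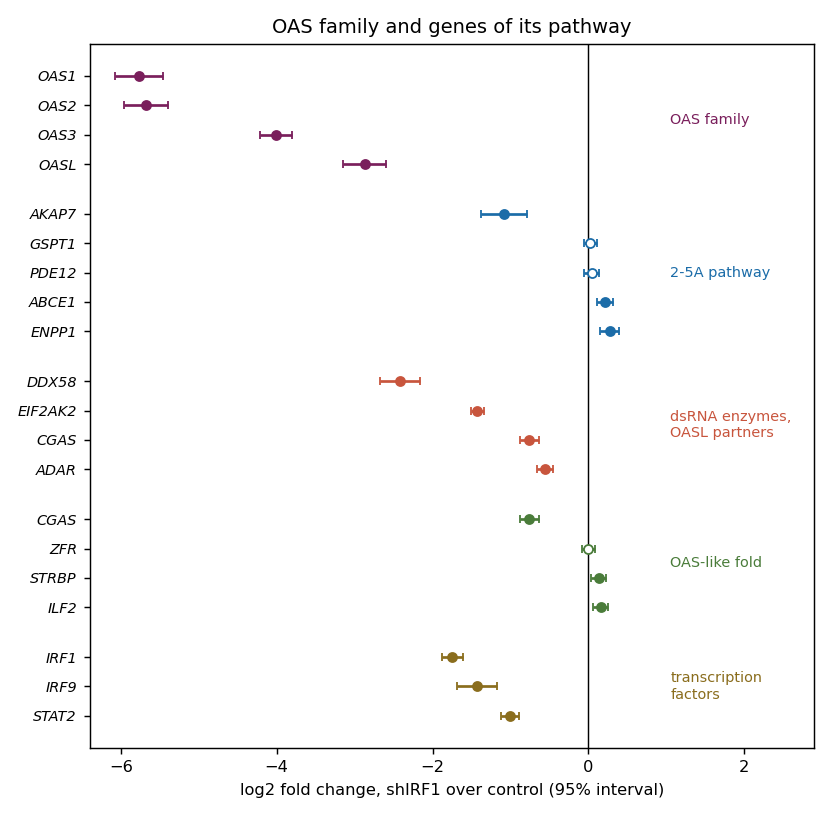
Log2 fold change of IRF1shRNA (shIRF1) over control samples with its 95% interval for the OAS family, 2-5A pathway genes, dsRNA enzymes and OASL partners, genes of the OAS-like fold (CGAS is in both lists) and transcription factors. Filled circles passed an adjusted p of 0.05, and the OAS family lies from −5.77 to −2.87, whereas 4 of the 5 other 2-5A pathway genes lie between 0.02 and 0.27.

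Because OAS1, OAS3 and OAS2 are contiguous, the protein-coding genes on either side of them were compared with the members. From HECTD4 to TPCN1 there are 11 such genes, of which 8 were tested. Of these, 2 were lower and 3 were higher, beside 26.4% lower and 24.1% higher over all genes tested. No estimate reached 2-fold in either direction, with a range from −0.20 to 0.47. Upstream of OAS1, the nearest tested gene was PTPN11, a tyrosine phosphatase gene, at 0.34 ± 0.05, followed by RPL6, a ribosomal protein gene, at 0.16 ± 0.04 and HECTD4 at −0.14 ± 0.04. RPH3A, which directly precedes OAS1, and DTX1, which follows OAS2, were not tested, since they reached at most 0.0360 and 0.108 CPM. On the far side, CFAP73 was at 0.27 ± 0.48, DDX54 at −0.04 ± 0.05, RITA1 at −0.16 ± 0.05, IQCD at −0.20 ± 0.11 and TPCN1, a lysosomal channel gene, at 0.47 ± 0.05. By edgeR, the call of HECTD4 was lost without control replicate 2 (adjusted p 0.0724) and without IRF1shRNA replicate 1 (0.0617), in a range from 0.00546 to 0.0926 over the alternatives other than glmTreat. That of RITA1 was lost by edgeR without control replicate 2 (0.0662) and control replicate 3 (0.0643), in a range from 0.00175 to 0.0662.

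Around OASL, 5 protein-coding genes were tested, of which 2 were lower and 0 were higher by edgeR. At an unadjusted p under 0.05, 0 were higher, and 0 were higher by DESeq2. By edgeR, 26.4% of all genes tested were lower and 24.1% higher. SPPL3 was at −0.10 ± 0.05, P2RX4, an ATP-gated channel gene, at −0.17 ± 0.08 and ANAPC5 at −0.04 ± 0.05. CAMKK2, a kinase gene, fell by 0.39 ± 0.05. P2RX7, an ATP-gated channel gene as well, was at −1.90 ± 0.68 but was hardly expressed, with 20, 12 and 20 counts in control and 10, 0 and 2 counts in IRF1shRNA samples. Its call (adjusted p of 0.0276 by edgeR) was lost in 4 of the 6 fits without one library, namely without control replicate 1 (0.0892) or 3 (0.0664) and without IRF1shRNA replicate 2 (0.0733) or 3 (0.163), and under DESeq2 (0.0668), over a range from 0.00318 to 0.163. Without IRF1shRNA replicate 1 its estimate was −3.75. The decrease at both loci was larger for the OAS genes than for any neighbour named here that had at least 1 CPM.

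**Figure D5:**
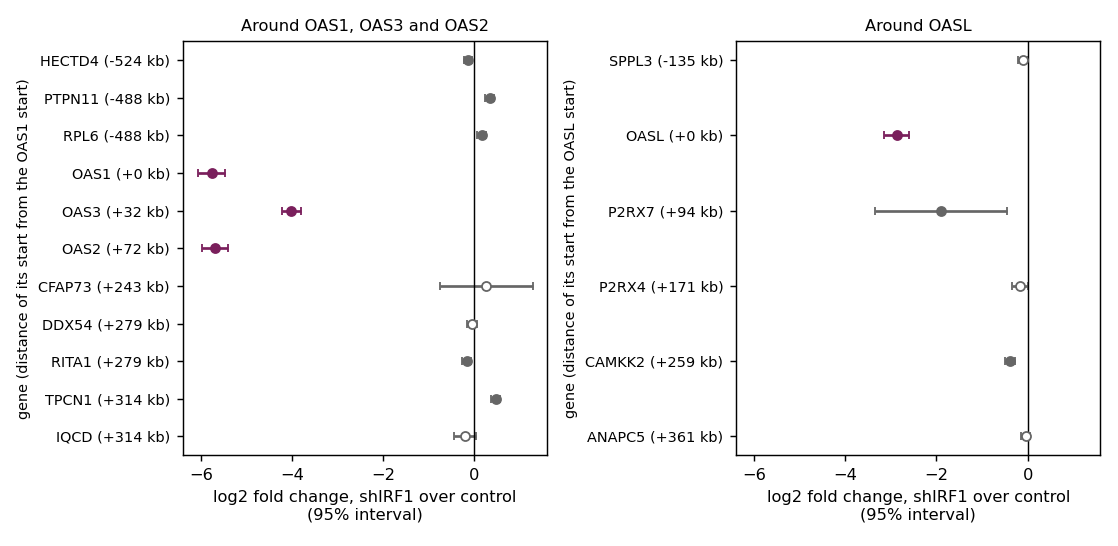
Log2 fold change of IRF1shRNA (shIRF1) over control samples with its 95% interval for tested protein-coding genes around OAS1, OAS3 and OAS2 (left) and around OASL (right), ordered by the distance of their start from that of OAS1 or OASL in kb. Members are in purple and neighbours in grey, filled where the adjusted p was under 0.05. The neighbours at the OAS1, OAS3 and OAS2 locus lie between −0.20 and 0.47, against −5.77 to −4.01 for the members.

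Genes with the most similar pattern were sought among the 13062 other genes that averaged 1 CPM or more. Likeness was the Euclidean distance over the 6 samples between a gene's log2 CPM, centred on its mean, and the mean centred profile of the 4 members. The 5 nearest were IFI6, an IFN-induced membrane protein (distance 0.302), SAMD9L, a restriction factor (0.415), CMPK2, a mitochondrial nucleotide kinase (0.692), BST2, which encodes tetherin (0.786), and APOL1, an apolipoprotein (0.816). For IFI6, controls averaged 323 ± 56.6 CPM and IRF1-silenced samples 14.6 ± 1.41 CPM, with a log2 fold change of −4.46, and SAMD9L was at −4.28. The profile includes the difference between the groups, so fold changes near those of the members follow from how these genes were chosen. Of the members, OAS3 was the closest to the family mean, with a distance of 0.697 and 3 other genes nearer, and OASL the farthest, at 2.12 with 38 other genes nearer. OAS1 and OAS2 were at 1.45 and 1.35, with 24 and 21 other genes nearer. Each member is part of the mean it was compared with, and its distance also reflects the size of its fold change.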

How the data were processed

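For the 6 samples, 1 table of read counts by gene symbol was deposited, with no normalization. The submitters' processing notes name CASAVA 1.8.2, STAR 2.7.9a, featureCounts, DESeq2 1.24.0 and the build GRCh38.p7, and the labels name TruSeq Stranded mRNA libraries. The annotation release and the strand setting are not given in the sources used here. Between 72.1% and 75.2% of values from 2 to 11 were even, so both mates of a pair appear to have been counted.

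The counts were tested with edgeR 4.0.16 (R 4.3.3) by its quasi-likelihood test, with group as the factor, TMM scaling, filterByExpr (minimum count 10) and Benjamini-Hochberg adjustment over 18851 genes, a procedure also tested on simulated data. The SE is the log2 fold change divided by the square root of F. The limit set by 3 counts covers counting error only. Replicates differed by more than sampling noise (chi-square per degree of freedom 5.67 to 13.9, counts halved). The members, gene lists, motifs and rules were chosen with earlier results of these data known. The rule for named genes covered the members, IRF1, the listed genes and the 5 nearest profiles. Exon lengths and positions came from GENCODE release 29. Each member was compared with every other by within-sample count ratios. Alternatives were DESeq2 1.42.0, other scalings and filters, leaving out each library, a replicate block, glmTreat, halved counts and thinned libraries. Some listed genes and 1 motif are not reported here, and counts and medians of lists cover the genes reported.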

Additional observations from a re-analysis of the deposited data

How the results depend on the processing

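The 64 recomputed log2 fold changes of the members (16 alternatives for each) had the direction and call given above. Leaving out each library in turn gave −5.90 to −5.60 for OAS1, −5.82 to −5.53 for OAS2, −4.11 to −3.90 for OAS3 and −3.02 to −2.69 for OASL. Fitted with a replicate block, the members were at −5.77, −5.68, −4.01 and −2.86, and 4972 genes were called lower and 4490 higher, against 4971 and 4548 without the block. Deviations of same-numbered samples correlated at 0.00025, 0.030 and 0.0074, and 2 of 6 samples correlated best with their own number. These values cannot show whether samples of one number shared a day or batch, and the labels name none.

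Calls over 2-fold were 835 lower and 647 higher, but 523 and 223 among genes with at least 1 CPM in at least 3 samples, where fewer genes were tested. The test against a 2-fold change called 377 lower and 127 higher. It called 2 dsRNA enzymes or OASL partners lower, and 0 lower and 0 higher of the 2-5A pathway, the OAS-like fold and both sets of neighbours. Of the neighbours of OASL, 1 was lower by DESeq2, with the 1 CPM filter, with halved counts and with thinned libraries, and 1 to 2 without one library. Of the neighbours of OAS1, OAS3 and OAS2, 1 was lower under upper quartile scaling, 0 with library size only and 0 to 2 without one library. The OAS-like fold had 1 to 2 higher without one library. P2RX7 and CFAP73 were not tested under 3 of the 16 alternatives.

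Outside the test against 2-fold, 15 calls of named genes were lost, and 15 were lost under it. In 18 cases an estimate that passed no test changed sign. ZFR was at 0.0023 by DESeq2, 0.0066 with its size factors, 0.043 with upper quartile scaling, 0.050 with library size only, 0.024 with the 1 CPM filter, 0.0054 with halved and 0.0075 with thinned counts. DDX54 was at 0.0050 and ANAPC5 at 0.00032 with upper quartile scaling, and at 0.013 and 0.0071 with library size only. Without one library, ZFR ranged from −0.017 to 0.022, DDX54 from −0.072 to 0.020, PDE12 from −0.0064 to 0.081 and CFAP73 from −0.20 to 0.60. The cause of these changes was not tested. At 66 to 193 counts, OAS1 in IRF1shRNA samples had the least depth of the members.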
